A study of Saccharomyces cerevisiae with 109 samples.

Results

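Peroxiredoxins reduce hydrogen peroxide and organic peroxides, and thioredoxins hand them the electrons that the reaction uses up. Budding yeast (Saccharomyces cerevisiae) encodes 10 genes of this cycle that were followed here: the peroxiredoxins TSA1 (YML028W), TSA2 (YDR453C), AHP1 (YLR109W), PRX1 (YBL064C) and DOT5 (YIL010W), the thioredoxins TRX1 (YLR043C), TRX2 (YGR209C) and TRX3 (YCR083W), the thioredoxin reductase TRR1 (YDR353W) and the sulfiredoxin SRX1 (YKL086W). They were chosen by name and function with earlier results of these data known, and are 10 of the 6297 genes in the deposited table. All 10 systematic names were found in the RefSeq yeast gene list with the same gene names.

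The peroxide-reducing cysteine of a peroxiredoxin is oxidized in each round, and thioredoxin resets it and is itself reset by thioredoxin reductase with electrons from NADPH. Under high peroxide the cysteine of Tsa1 can be over-oxidized, and sulfiredoxin repairs it. In yeast several of these genes are known targets of Yap1, a transcription factor that peroxide drives into the nucleus, often together with Skn7, while the general stress factors Msn2 and Msn4 answer many kinds of stress.

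Each of the 109 arrays compared 2 RNA samples by hybridization, and each deposited value is the log2 ratio of the signals. The direction is not stated and was taken as stressed over unstressed. A value of 1 then means 2-fold more signal from the stressed cells than from unstressed cells of the same strain. On 51 arrays cells had received 0.4 mM H2O2, on 27 they had been moved to 37°C, on 14 they had received NaCl (0.75 M in the sample labels, 0.7 M in the descriptions), on 14 cells adapted to 37°C had been returned to 25°C (stress relief), and 3 arrays set unstressed rpd3Δ cells against unstressed wild type. The study asked whether the histone deacetylase Rpd3, its complexes and its DNA-binding partners shape the transcriptional answer to stress. The labels do not say which arrays of a group came from separate cultures. The methods describe the 30 min peroxide and the unstressed experiments as repeated and call some of the peroxide responses biological replicates. Where arrays share a culture, the p-values below measure only the spread between arrays.

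The wild type was BY4741, grown in YPD at 30°C, or at 25°C before heat (1 of the rpd3Δ heat courses has a reference labelled 30°C). The rpd3Δ strain was made in BY4741 by gene replacement and grew more slowly, pho23Δ (a subunit of the large Rpd3 complex) and rco1Δ (a subunit of the small complex) came from a commercial deletion collection, and ume6Δ lacked a DNA-binding protein that recruits Rpd3. The msn2Δ msn4Δ strain lacked both general stress factors, and the msn2Δ msn4Δ rpd3Δ strain was built from a strain lacking both. Strain H4KQ, whose histone H4 carries lysine-to-glutamine replacements, was set against its own control NSY429, both grown without tryptophan. Plasmid-borne RPD3 or a catalytically altered rpd3 (H150:151A) was carried in rpd3Δ cells grown without leucine, and 10 µM trichostatin A, a deacetylase inhibitor, was set against its solvent DMSO in heated wild-type cells. At 30 min of H2O2 there were 8 wild-type arrays, 3 each of rpd3Δ, pho23Δ, rco1Δ, msn2Δ msn4Δ, msn2Δ msn4Δ rpd3Δ, NSY429 and H4KQ, and 4 of ume6Δ.

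Between 4288 and 6115 genes had a value on each array, and the mean over genes lay between -0.0017 and 0.00097 on every array, so a ratio is relative to the other genes of its array. The files give no signal strength, so precision comes from the number of arrays alone. Of the deleted genes, UME6 had no value on any of the 4 ume6Δ arrays and a value on 32 of 35 wild-type arrays, and RPD3, the gene most directly checked, was measured on 1 of the 3 unstressed rpd3Δ arrays, at -2.57. The other deleted genes kept values in their strains, PHO23 on 7 of 7 pho23Δ arrays, RCO1 on 4 of 7 rco1Δ arrays, MSN4 on 3 of 3 and MSN2 on 1 of 3 msn2Δ msn4Δ arrays and RPD3 on 13 of 30 rpd3Δ arrays, and the ratio of a strain to itself does not check a deletion. The rpd3Δ array at 30 min of the second heat course held the fewest genes (4288) and correlated at r = 0.433 with the other rpd3Δ heat arrays, ume6Δ replicate 4 at r = 0.572 with the other ume6Δ arrays, and unstressed replicate 3 at r = 0.377 with its partners. Several tests that rest on these arrays are given below with and without them.

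Empty cells took 10.0% of the members' values and 12.4% of all genes' values. On H2O2 arrays the members were the emptier ones, at 20.8% against 11.6% of all genes in wild type and 20.0% against 8.13% in rpd3Δ. They were not spread evenly: TSA1 was empty on 22 of 51 H2O2 arrays and on no heat, NaCl or relief array, and TSA2 was empty on 13, AHP1 on 11 and TRX3 on 10 of the H2O2 arrays. The reason was not tested. Genes with a value on fewer than 80% of the arrays were left out of the tests at 30 min of H2O2, which kept 7 of the 10 members: TSA1, TSA2 and AHP1 did not pass, and for them an unfiltered fit over all genes is given and named as such (62.5% of genes were called against 0 in it in wild type). The probe sequences were not used here, so cross-hybridization between TSA1 and TSA2 or between TRX1 and TRX2, which are close in sequence, was not tested.

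In wild-type cells 30 min after H2O2, SRX1 and TSA2 stood highest, followed by PRX1, TRR1 and TRX2, while the means of TSA1, AHP1, DOT5 and TRX1 lay between 0.59 and 1.29 and that of TRX3 at 0.26. With limma at an FDR of 0.01, 5 of the 7 tested members rose (PRX1, DOT5, TRX2, TRR1 and SRX1) and none fell. The response was genome-wide: 68.4% of all 5212 genes tested were called and 34.3% rose. The median of the 7 members was 2.85 against 0.01 over all genes.

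Among the peroxiredoxins, TSA2, the stress-inducible relative of TSA1, measured 5.01 at the lowest, 5.85 at the median and 6.56 at the highest on 6 wild-type arrays. Its mean was 5.78 ± 0.65 (SD, n = 6), a 54.8-fold ratio, with an adjusted p of 8.9e-11 in the unfiltered limma fit. TSA1, the most abundant cytosolic peroxiredoxin in yeast, read 1.38, 1.10, 1.19 and 0.99 on its 4 arrays, which lie far below those of TSA2 with no overlap (1.17 ± 0.16, adjusted p = 3.0e-05, unfiltered limma fit).

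AHP1, a cytosolic peroxiredoxin that prefers organic peroxides, was measured on 3 of the 8 wild-type arrays at 1.61, 1.33 and 0.93 (1.29 ± 0.34, 2.45-fold, adjusted p = 0.00028, unfiltered limma fit). PRX1, the mitochondrial peroxiredoxin, ran from 2.93 through a median of 3.92 to 4.42 on 8 arrays, a mean of 3.83 ± 0.51 or 14.3-fold (limma adjusted p = 6.3e-14). The nuclear peroxiredoxin DOT5 gave 0.32, 0.87 and 1.16 for the same 3 statistics (mean 0.83 ± 0.26, n = 8, 1.78-fold, limma adjusted p = 1.6e-08). All 5 peroxiredoxins were thus above their unstressed level on each array that measured them, over a range from less than 1 to more than 6 log2 units.

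Of the cytosolic thioredoxins, TRX2 was the stronger responder. It measured 1.35 at the lowest, 3.42 at the median and 3.86 at the highest of 7 arrays, with a mean of 2.85 ± 1.06 or 7.21-fold (limma adjusted p = 1.1e-07). TRX1 measured 0.01, 0.75 and 1.02 (mean 0.59 ± 0.38, n = 7) and did not pass (limma adjusted p = 0.019). The 2 lowest TRX2 values, 1.35 on replicate 7 and 1.47 on replicate 2, gave it the widest spread of the members. TRX3, the mitochondrial thioredoxin, lay between -0.05 and 0.71 with a median of 0.13 (limma adjusted p = 0.096).

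TRR1, the cytosolic thioredoxin reductase, was the most even of the strong responders, from 2.67 through 3.05 to 3.49 on 8 arrays (mean 3.07 ± 0.24, 8.40-fold, limma adjusted p = 4.2e-16). SRX1, the sulfiredoxin, ran from 5.03 through 6.29 to 6.81 (mean 6.16 ± 0.59, n = 8, 71.4-fold, limma adjusted p = 3.3e-15). The ranges of SRX1 and TSA2 overlapped, as did those of TRR1, PRX1 and TRX2, so the order inside these pairs and triples was within the spread between arrays. Over all 51 H2O2 arrays of every strain and time, SRX1 was above 0 on 51 (1.49 to 7.13), PRX1 on 51 (0.69 to 5.30), TSA2 on 38 of 38, TSA1 on 29 of 29, AHP1 on 40 of 40, TRR1 on 49 of 49 and TRX2 on 46 of 47.

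**Figure D1:**
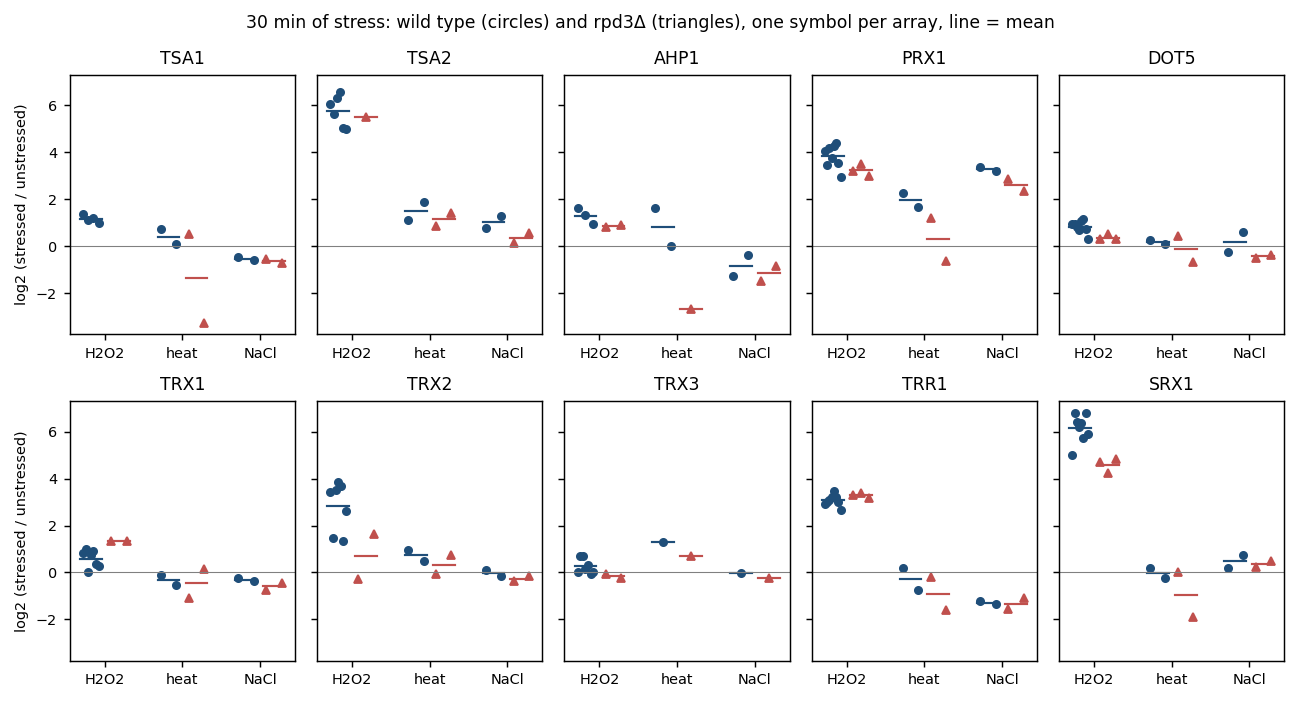
Log2 ratio (stressed over unstressed) of the 10 genes after 30 min of H2O2, heat or NaCl, 1 point per array, with wild type as circles, rpd3Δ as triangles and a line at each mean. In wild type SRX1 reached 5.03 to 6.81 in H2O2 while both heat and both NaCl arrays lay between -0.25 and 0.76, and PRX1 and TSA2 were above 0 on every wild-type array that measured them in all 3 stresses.

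The next question was which of these changes were particular to peroxide. The H2O2 ratios at 30 min were set against those of 2 heat and 2 NaCl arrays at the same time, and the same H2O2 arrays serve in both comparisons. In wild type 5 of 6 tested members were higher in H2O2 than in heat at an FDR of 0.05, where 29.2% of 4981 genes differed and 14% were higher. Against NaCl 3 of 6 were higher, where 16% of genes differed and 8.28% were higher.

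SRX1 separated the stresses most. On the 2 wild-type arrays at 30 min it measured 0.19 and -0.25 in heat and 0.18 and 0.76 in NaCl, against at least 5.03 in H2O2. The difference was 6.19 from heat (SE 0.43, limma adjusted p = 4.0e-08) and 5.69 from NaCl (limma adjusted p = 7.2e-08). TSA2, in contrast, was raised in each stress, at 1.11 and 1.86 in heat and 0.79 and 1.29 in NaCl, but far less than in H2O2: the differences were 4.29 and 4.74 (adjusted p = 2.4e-05 and 1.4e-05, unfiltered limma fit, in which 25% and 14.3% of genes differed).

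TRR1 moved in opposite ways. It measured 0.18 and -0.73 in heat and fell to -1.22 and -1.36 in NaCl (mean -1.29, limma adjusted p = 0.00073 against 0), while H2O2 raised it above 2.67 on every array. The differences were 3.35 from heat (limma adjusted p = 5.9e-07) and 4.36 from NaCl (limma adjusted p = 2.8e-08). The reductase was thereby the only member to rise in one stress and fall in another by these tests, although without either NaCl array the fall no longer passed (adjusted p = 0.013 and 0.027, limma).

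PRX1, like TSA2, was above 0 on every wild-type array that measured it at 30 min of the 3 stresses. Its wild-type values were 2.26 and 1.66 in heat and 3.36 and 3.22 in NaCl, and it rose in heat (mean 1.96, limma adjusted p = 0.0013, where 7.67% of genes were called and 4.82% were higher) and in NaCl (3.29, limma adjusted p = 1.5e-06, where 35.3% were called, 16.6% higher and 18.7% lower). H2O2 exceeded heat by 1.87 (limma adjusted p = 0.0021), and the groups did not overlap. The difference from NaCl was 0.54 with an adjusted p of 0.38 (limma), and the groups overlapped. In heat PRX1 was the 1 member of 6 called against 0, and the heat call was lost without either heat array (adjusted p = 0.038 and 0.014, limma).

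TRX2 measured 0.95 and 0.51 in heat and 0.13 and -0.15 in NaCl, below all 7 H2O2 arrays, and differed by 2.12 from heat (limma adjusted p = 0.019) and 2.86 from NaCl (limma adjusted p = 0.0059). TRX1 was at -0.10 and -0.55 in heat and -0.25 and -0.38 in NaCl, with differences of 0.92 (limma adjusted p = 0.035) and 0.91 (limma adjusted p = 0.058). Both thioredoxins were thus lower in heat and salt than in peroxide without overlap, but the heat calls of TRX1 and TRX2 were lost without either heat array (limma adjusted p = 0.060 and 0.27 for TRX1, 0.067 and 0.15 for TRX2), the TRX1 call also without H2O2 replicate 1, 2, 4 or 5 (limma adjusted p = 0.053 to 0.058), and the NaCl call of TRX2 without either NaCl array (limma adjusted p = 0.053 and 0.077). The PRX1 call against heat was lost without heat replicate 2. Over all 27 alternatives it passed in 25, with a difference from 0.61 to 2.17 and a limma adjusted p of up to 0.28.

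For DOT5 the difference was 0.66 from heat (limma adjusted p = 0.072) and 0.67 from NaCl (limma adjusted p = 0.10). AHP1 measured 1.62 on the first heat array and 0.02 on the second, overlapping its H2O2 values, and -1.27 and -0.39 in NaCl, 2.12 below H2O2 (adjusted p = 0.016, unfiltered limma fit). TSA1 was at 0.72 and 0.10 in heat and at -0.44 and -0.61 in NaCl, with no overlap with H2O2 but no call (adjusted p = 0.51 and 0.17, unfiltered limma fit). TRX3 measured 1.29 on the 1 heat array that held it, above its wild-type H2O2 values at 30 min. Without the rpd3Δ heat array with the fewest genes, which enters the common spread of this fit, DOT5 passed against heat (limma adjusted p = 0.029, 33.9% of genes called) and DOT5 and TRX1 against NaCl (limma adjusted p = 0.040 and 0.020, 20.9%).

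In rpd3Δ cells the same contrasts called 4 of 6 members higher in H2O2 than in heat, where 14.9% of genes differed and 9.13% were higher, and 3 of 6 higher than in NaCl, where 7.99% differed and 4.92% were higher. TRR1 exceeded heat by 4.19 (limma adjusted p = 2.4e-07) and NaCl by 4.62 (5.7e-08), and SRX1 by 5.54 (9.0e-07) and 4.23 (2.3e-05), so reductase and sulfiredoxin separated the stresses in both strains. TRX1 was higher by 1.82 than in heat (limma adjusted p = 0.0057) and by 1.94 than in NaCl (0.0047). The TRX1 call against NaCl was lost without NaCl replicate 1. That against heat passed in 25 of 26 alternatives, with a difference from 1.19 to 2.44.

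PRX1 in rpd3Δ exceeded heat by 2.94 (limma adjusted p = 0.00034) and in NaCl was raised to 2.62 (6.3e-05 against 0), while TRR1 fell by 1.33 in NaCl (0.0017, with 13.5% of genes called, 6.59% higher and 6.89% lower). The TRR1 fall was lost without either rpd3Δ NaCl array (limma adjusted p = 0.12 and 0.013) and the PRX1 rise without NaCl replicate 1 (0.012). The heat contrasts of rpd3Δ rest in part on the array with the fewest genes, where PRX1 measured -0.62, TRR1 -1.61, SRX1 -1.90, TSA1 -3.26 and AHP1 -2.67 against 1.21, -0.20, 0.00 and 0.50 for PRX1, TRR1, SRX1 and TSA1 on the other array. Without that array the same 4 of 6 members were higher in H2O2 than in heat (13.2% of genes called), by 2.02 for PRX1 (limma adjusted p = 0.010), 2.44 for TRX1 (0.0011), 3.48 for TRR1 (6.0e-06) and 4.58 for SRX1 (3.7e-05), and against NaCl DOT5 was added (0.80, limma adjusted p = 0.048, 11.9% of genes called). In rpd3Δ heat no member was called against 0, with or without it (limma, with it 2 of 6 at an unadjusted p under 0.05, TRR1 and SRX1, 3.89% of genes called).

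The difference between strains was then compared across stresses. The rpd3Δ heat array with the fewest genes has a reference labelled 30°C, unlike wild type, so strain and starting temperature differ together on it. The rpd3Δ-minus-wild-type difference was called for 0 of 6 members in heat (1.03% of genes, PRX1 -1.67, limma adjusted p = 0.11, the 1 member with an unadjusted p under 0.05, and without the array with the fewest genes -0.75, limma adjusted p = 0.42, 2.71% of genes) and for 0 of 6 in NaCl (4.54% of genes, 0 at an unadjusted p under 0.05). The interaction, which tests whether the strain difference in H2O2 departs from that in another stress, was called for 0 of 6 members against heat (1.23% of genes, 0 at an unadjusted p under 0.05) and 0 of 6 against NaCl (0.02% of genes, SRX1 at an unadjusted p under 0.05).

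Next the H2O2 response at 30 min was followed through the strains. Every strain comparison below uses the same 8 wild-type arrays, so they are not independent of each other. Against 0, at an FDR of 0.01, PRX1, TRR1 and SRX1 rose in each of the 7 BY strains: 3 of 7 members in rpd3Δ (32.5% of genes called, 18.5% higher), 4 in pho23Δ (30.7%, 16.5% higher) and 5 each in rco1Δ (49.1%, 24.3% higher), ume6Δ (42.1%, 19.5% higher), msn2Δ msn4Δ (41.7%, 20.7% higher) and msn2Δ msn4Δ rpd3Δ (25.4%, 13.4% higher). TRX2 rose in all of them but rpd3Δ, and DOT5 in wild type, rco1Δ, ume6Δ and msn2Δ msn4Δ. The TRX2 call in pho23Δ was lost without its replicate 1 and the DOT5 call in ume6Δ without its replicate 1 or 3 (limma adjusted p = 0.010, 0.038 and 0.078). The triple mutant was the 1 strain in which TRX1 was called (estimate 1.30, limma adjusted p = 0.0042). That call was lost without replicate 2 (limma adjusted p = 0.12) or replicate 3 (0.015). In rpd3Δ the TRX1 estimate was as high, at 1.35 on 2 arrays, but was not called.

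**Figure D2:**
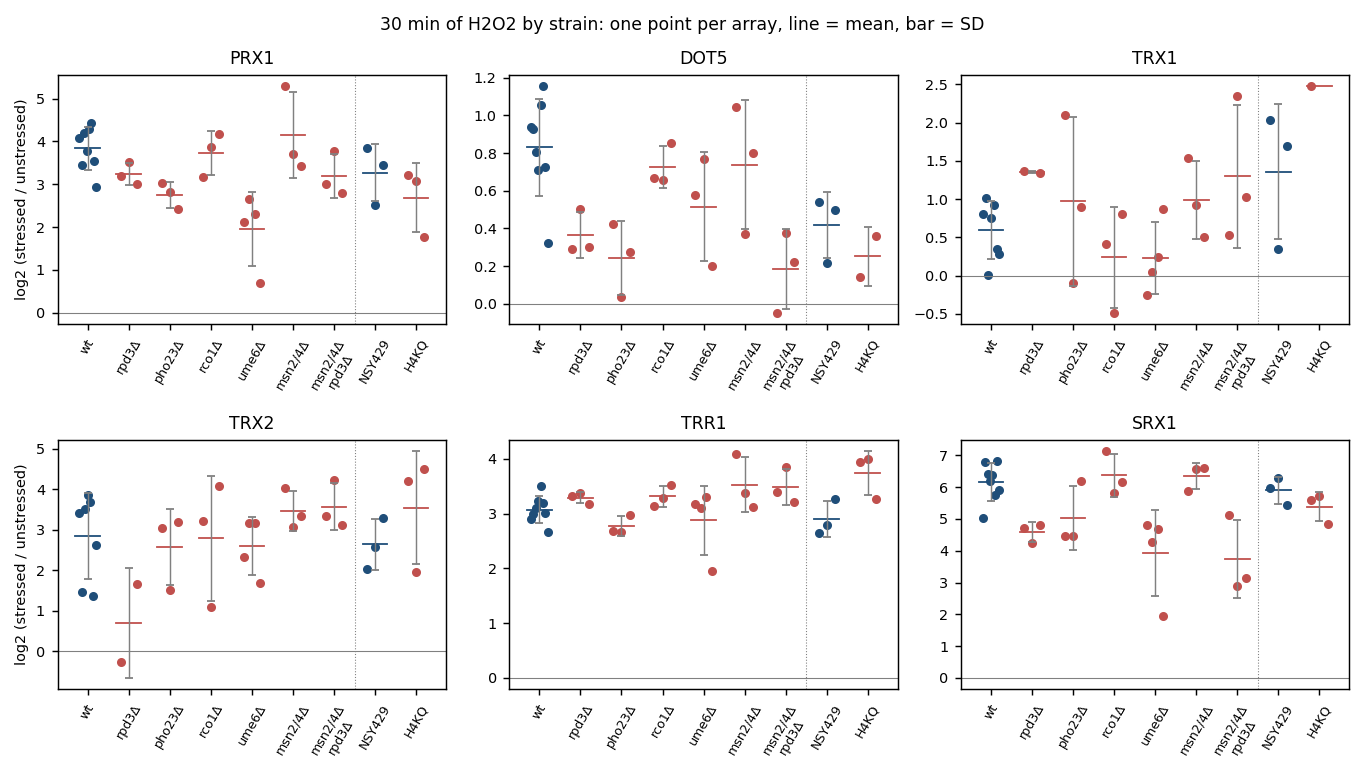
Log2 ratio at 30 min of H2O2 in 9 strains for the 6 members named, 1 point per array, with the mean as a line and ± 1 SD as a bar; a dotted line sets apart NSY429 and H4KQ, which were grown in another medium. TRR1 had a median of 3.18 over the BY arrays (1.94 to 4.085). The mean of SRX1 was lower in rpd3Δ, pho23Δ, ume6Δ and the triple mutant than in wild type, but in pho23Δ this was not called.

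SRX1 was called lower in 3 strains. It measured 4.71, 4.23 and 4.82 in rpd3Δ, all below the lowest wild-type array at 5.03. The difference was -1.57 (SE 0.53, limma adjusted p = 0.032), 1 of 2 members called among 7 where 24.3% of genes differed and 10.1% were lower. The call depended on the scale of the arrays: the SD over all genes was 0.85 to 1.03 on rpd3Δ arrays and 0.99 to 1.44 on wild-type arrays, and when each array was divided by its own spread the SRX1 difference turned to 0.18 (limma adjusted p = 0.82). It also did not pass without any 1 of the 3 rpd3Δ arrays (limma adjusted p = 0.074 to 0.14), nor without wild-type replicate 2 (0.052) or 7 (0.053).

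In the triple mutant SRX1 measured 5.13, 2.89 and 3.15, against 5.86, 6.56 and 6.61 in msn2Δ msn4Δ. Its difference was -2.43 from wild type (SE 0.53, limma adjusted p = 0.0012, 31.3% of genes differed and 14.8% were lower), and -2.62 from msn2Δ msn4Δ (limma adjusted p = 0.012, 9.39% of genes differed and 3.17% were lower). Sulfiredoxin thus stood lower where rpd3 was deleted along with both general stress factors, and at the wild-type level where only the latter were absent (0.19 from wild type, limma adjusted p = 0.86). The SRX1 call against msn2Δ msn4Δ was lost on leaving out any of 3 arrays (limma adjusted p = 0.050 to 0.066). These were replicates 2 and 3 of the triple mutant and replicate 2 of msn2Δ msn4Δ. Over all 35 alternatives this call passed in 31, with estimates from -3.32 to -0.96 and a limma adjusted p of up to 0.29. Against wild type the SRX1 call was lost with rescaled arrays. From rpd3Δ the triple mutant differed by -0.86 (limma adjusted p = 0.82), and no member was called there (0.269% of genes, TRX2 at an unadjusted p under 0.05).

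In ume6Δ SRX1 measured 4.80, 4.26, 4.70 and 1.94 and PRX1 2.12, 2.66, 2.31 and 0.69. Each ume6Δ value lay below every wild-type value of the same gene. PRX1 was lower by an estimate of -1.89 (SE 0.35, limma adjusted p = 0.0085) and SRX1 by -2.23 (SE 0.48, limma adjusted p = 0.025), 2 of 7 members in a comparison in which 0.71% of all genes differed and 0.499% were lower. Without replicate 4, the array that stood apart, PRX1 was at -1.47 (limma adjusted p = 0.045) and SRX1 at -1.57 (limma adjusted p = 0.15), where 0.499% of genes were called. In the same fit, which shares its spread over strains, DOT5 in rpd3Δ and PRX1 in pho23Δ passed as lower than wild type (limma adjusted p = 0.039 and 0.023, where 27.5% and 22.2% of genes were called). TRX1 passed against 0 in rpd3Δ (limma adjusted p = 0.0089, 34.9% of genes called). The SRX1 call was also lost without ume6Δ replicate 2 or wild-type replicate 2 or 5 (limma adjusted p = 0.051 to 0.058), and neither call passed once arrays were rescaled.

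PRX1 measured 3.19, 3.51 and 3.01 in rpd3Δ (difference from wild type -0.60, limma adjusted p = 0.29) and 3.02, 2.82 and 2.42 in pho23Δ (-1.08, limma adjusted p = 0.053). The values overlapped with those of wild type in both strains. In msn2Δ msn4Δ it measured 5.30, 3.70 and 3.43, so the mitochondrial peroxiredoxin had no lower response on these arrays without both general stress factors (0.31 from wild type, limma adjusted p = 0.66).

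DOT5 was lower in 2 strains. It measured 0.42, 0.03 and 0.27 in pho23Δ (difference -0.59, SE 0.17, limma adjusted p = 0.020), the 1 call among 7 where 18.3% of genes differed and 8.5% were lower, and -0.05, 0.37 and 0.22 in the triple mutant (-0.65, limma adjusted p = 0.0060). In rpd3Δ it measured 0.29, 0.50 and 0.30 (-0.46, limma adjusted p = 0.053). The pho23Δ call was lost without pho23Δ replicate 2 or 3 (limma adjusted p = 0.13 and 0.055) and that of the triple mutant without its replicate 1 (0.061).

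TRX2 was called lower in rpd3Δ from 2 arrays, -0.27 and 1.65 (difference -2.16, SE 0.73, limma adjusted p = 0.034), the other rpd3Δ array being empty. Without rpd3Δ replicate 2 the difference was -1.20 with an adjusted p of 0.44 (limma), and without wild-type replicate 1, 4, 5 or 6 the adjusted p was 0.051 to 0.057. Replicate 2 of TRX2 read 1.47 in wild type, 1.505 in pho23Δ and 1.09 in rco1Δ, but 3.165 in ume6Δ and 4.23 in the triple mutant. In the H2O2 time course TRX2 measured 2.40, 2.82 and 3.14 in rpd3Δ at 10, 20 and 60 min, against 2.37, 2.55 and 2.54 in wild type, so at matched times it was higher in rpd3Δ in 3 of 3 pairs.

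TRX1 was 1.36 and 1.34 on the 2 rpd3Δ arrays that measured it, above all 7 wild-type arrays, with a difference of 0.76 that did not pass (limma adjusted p = 0.26). TRR1 was the least strain-dependent of the strong responders: its differences from wild type ran from -0.30 in pho23Δ to 0.45 in msn2Δ msn4Δ, none called. In rco1Δ none of 7 members was called (0.441% of genes, 0 at an unadjusted p under 0.05), and in msn2Δ msn4Δ none of 7 (4.86% of genes, TRX3 at an unadjusted p under 0.05, -0.74, limma adjusted p = 0.096).

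TSA2 was measured on 1 rpd3Δ array at 30 min (5.51), 2 pho23Δ (5.88 and 5.80), 2 rco1Δ (5.77 and 6.54), 2 ume6Δ (5.48 and 3.94), 3 msn2Δ msn4Δ (6.33, 5.29 and 4.24) and 3 triple-mutant arrays (6.24, 6.08 and 4.28). Apart from ume6Δ replicate 4 and replicate 3 of both msn2Δ msn4Δ strains, these fell within the wild-type range. TSA1 was empty on all 30 min arrays of rpd3Δ, ume6Δ, msn2Δ msn4Δ and the triple mutant, so nothing can be said of it there.

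In the histone strains 4 of 6 members (PRX1, TRX2, TRR1 and SRX1) rose in NSY429 (23.9% of genes called, 11.4% higher) and the same 4 in H4KQ (11.3%, 7.31% higher). TRR1 measured 3.93, 4.00 and 3.27 in H4KQ against 2.64, 2.79 and 3.27 in NSY429, the highest control array meeting the lowest H4KQ array, with a difference of 0.84 (SE 0.29, limma adjusted p = 0.26). SRX1 measured 5.60, 5.71 and 4.85 in H4KQ and 5.98, 6.28 and 5.43 in NSY429. None of 6 members differed between the strains (limma, 0.0589% of genes, TRR1 at an unadjusted p under 0.05). The TRX2 call in NSY429 was lost without any 1 of its 3 arrays (limma adjusted p = 0.013 to 0.024), and that in H4KQ without replicate 3 (0.012).

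Before stress, rpd3Δ cells were set directly against wild type on 3 arrays. PRX1 measured 1.19, 1.25 and 0.21, SRX1 0.55, 0.75 and 0.24, and TSA2 0.41, 0.68 and 0.16. All 3 genes were higher in unstressed rpd3Δ on each array, but the means of 0.88, 0.51 and 0.41 did not pass (limma adjusted p = 0.12, 0.13 and 0.18), and none of 10 members did (3.5% of genes called, these 3 at an unadjusted p under 0.05). On replicate 3, which stood apart, TSA1 was at -2.16 and AHP1 at -1.005, against 0.20 and 0.36 for TSA1 and 0.32 and 0.50 for AHP1 on the other arrays. Without it 4 of 10 members passed (29.6% of genes called): PRX1 at 1.22, SRX1 at 0.65, TSA2 at 0.54 and AHP1 at 0.41 (limma adjusted p = 0.011, 0.025, 0.039 and 0.047). Replicate 3 was also the only one of the 3 with the dyes the other way round. The fit without it holds 1 dye orientation, in which a dye effect cannot be told apart from a strain difference. Since stress ratios are taken within a strain, a higher unstressed level of a gene lowers its ratio at an equal stressed level; how far this enters the rpd3Δ ratios above was not tested.

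The time courses show how the members of the cycle differed in timing. They were run once for H2O2 and as 2 courses each for heat, NaCl and relief. Matched pairs of rpd3Δ and wild type below are times of these courses and so are not independent of each other. The share of all genes with the same pair counts was not computed. In wild type under H2O2 SRX1 was already at 5.31 at 10 min, then measured 5.12, 5.03, 4.73 and 2.24 at 20, 30, 40 and 60 min. PRX1 came later, at 2.35, 3.47, 4.07, 3.99 and 3.54. TRR1 measured 2.26, 2.82 and 2.90 at 10, 20 and 30 min and 0.41 at 60 min, so reductase and sulfiredoxin were falling back while the mitochondrial peroxiredoxin held most of its rise.

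In wild type 5 of 6 tested members were called against 0 over the H2O2 times (PRX1, DOT5, TRX2, TRR1 and SRX1, limma F test against 0 over all times, adjusted p from 1.2e-13 for TRR1 to 3.9e-05 for TRX2), where 63% of 5235 genes were called. This fit also held the separate 30 min arrays, 12 wild-type arrays in all, and no other time was repeated in any strain. The spread between arrays thus came from 30 min alone, and these calls are not separate from those at 30 min. TSA2 measured 4.08, 5.69 and 6.05 at 10, 20 and 30 min and TSA1 0.83, 1.33, 1.38 and 1.04 at 10, 20, 30 and 60 min. TSA2 was empty at 40 and 60 min. DOT5 was late as well as small, at 0.07, 0.27, 0.94, 1.05 and 0.74 over the 5 times.

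In rpd3Δ the H2O2 course of SRX1 read 4.07, 4.92, 4.71, 3.35 and 2.15 and that of PRX1 1.60, 2.32, 3.19, 3.16 and 2.98. Both were below wild type at 5 of 5 times, with a median difference of -0.83 for PRX1 and -0.32 for SRX1, whereas TRX1 was above it at 5 of 5 times (median difference 0.68). The strain difference over the course was called for 1 of 6 members, TRR1 (limma F = 6.67, adjusted p = 0.018, 17.1% of genes). That call came from 60 min, when TRR1 measured 0.41 in wild type and 2.00 in rpd3Δ, 2.76 in pho23Δ and 2.85 in rco1Δ, each on 1 array: without the 60 min arrays, left out after seeing the data, TRR1 had an adjusted p of 0.77 (limma) and SRX1 passed (F = 5.02, adjusted p = 0.043).

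The pho23Δ and rco1Δ courses were each run once. PRX1 at 10 min was 1.47 in pho23Δ and 1.10 in rco1Δ against 2.35 in wild type, and at 60 min 3.72 and 4.16 against 3.54, so both strains began below the wild type and ended above it. SRX1 in pho23Δ measured 3.49, 3.45, 4.45, 1.49 and 3.15, and in rco1Δ 2.34, 4.68, 7.13, 4.66 and 5.31. TRX1 in pho23Δ was 1.68, 2.29, 2.10 and 2.86 at 10, 20, 30 and 60 min, above wild type at each, although pho23Δ replicates 2 and 3 at 30 min read -0.10 and 0.90.

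**Figure D3:**
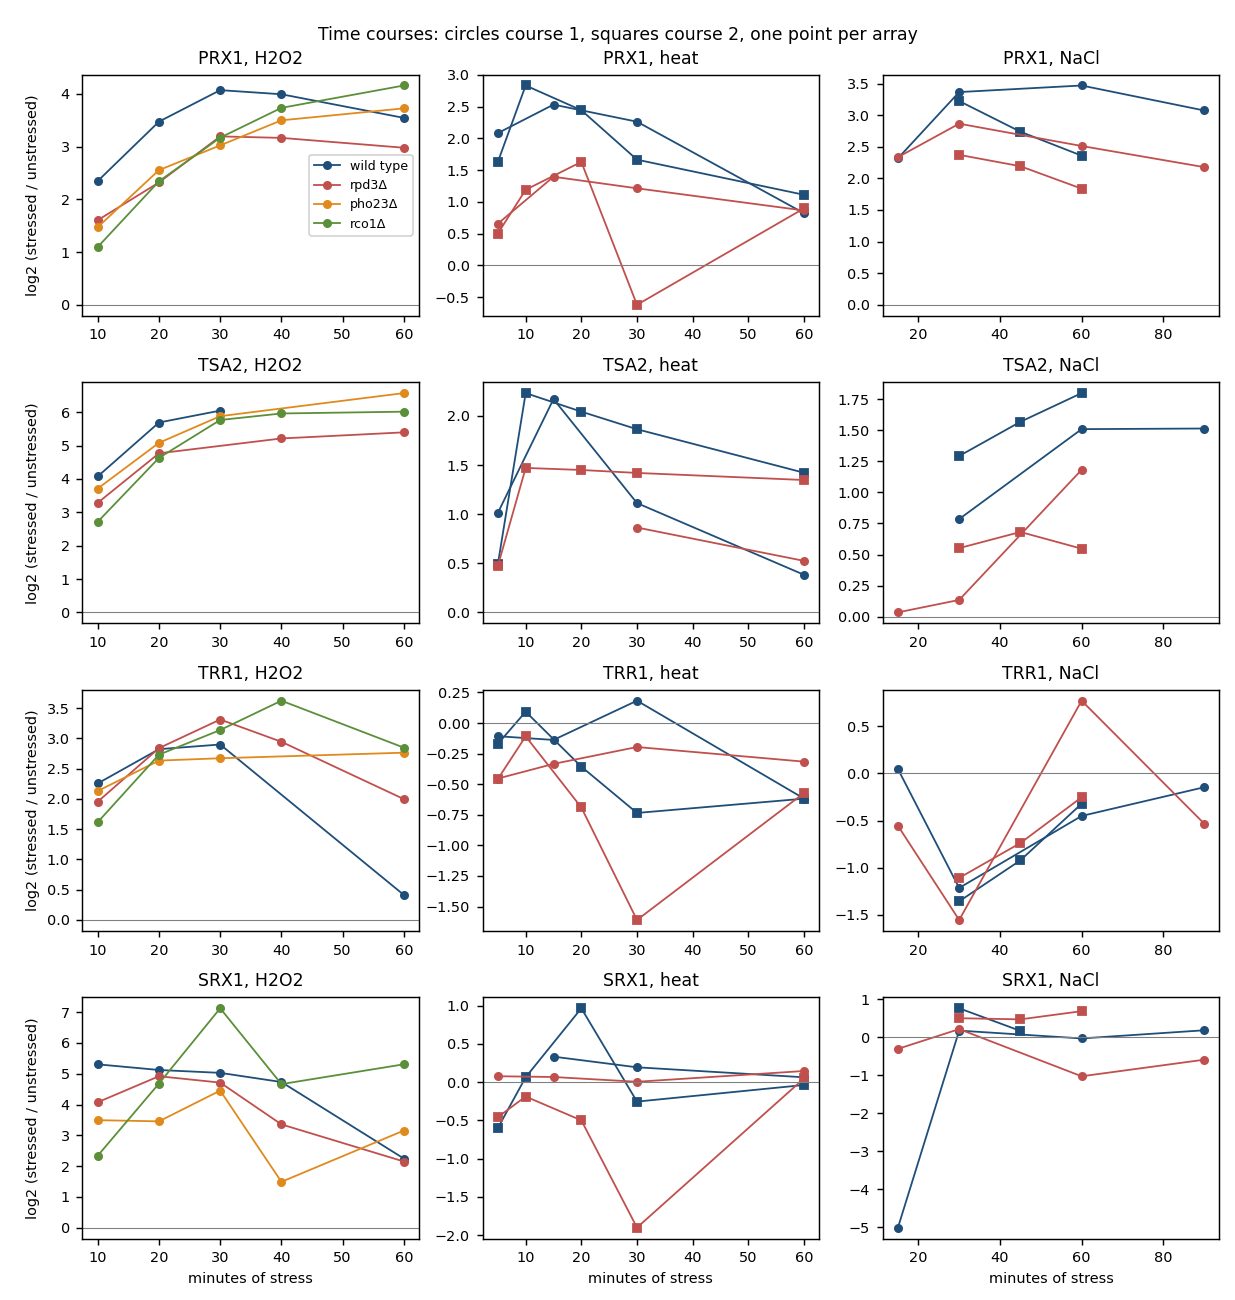
Log2 ratio of PRX1, TSA2, TRR1 and SRX1 against minutes of H2O2, heat or NaCl, 1 point per array, circles for course 1 and squares for course 2, with lines joining measured times; each panel has its own vertical scale. TRR1 at 60 min of H2O2 was 0.41 in wild type and 2.00 to 2.85 in the mutants, and PRX1 in heat lay lower in rpd3Δ in 8 of 9 matched pairs. In heat course 2 the rpd3Δ reference is labelled 30°C, unlike that of wild type.

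In heat, PRX1 in wild type measured 2.08, 2.53, 2.26 and 0.82 at 5, 15, 30 and 60 min of course 1 and 1.63, 2.83, 2.44, 1.66 and 1.11 at 5, 10, 20, 30 and 60 min of course 2. In rpd3Δ the corresponding values were 0.66, 1.40, 1.21 and 0.86, and 0.50, 1.19, 1.63, -0.62 and 0.90. In course 2 the rpd3Δ reference is labelled 30°C, unlike that of wild type, so strain and starting temperature differ together there. The part of each was not tested. In course 1 the differences were -1.43, -1.14, -1.05 and 0.04 in order of time. The rpd3Δ value was the lower one in 8 of 9 pairs, counting the array with the fewest genes (-2.29), with a median difference of -1.13. Over the whole course this difference did not pass (limma F = 4.42, adjusted p = 0.23, without the array with the fewest genes, left out after seeing the data, F = 7.40, adjusted p = 0.077), and 0 of 8 members did (1.54% of genes, PRX1 at an unadjusted p under 0.05).

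PRX1 and TSA2 were the 2 of 8 members called in wild type against 0 over the heat times (limma F = 24.2, adjusted p = 0.00014, and F = 15.7, adjusted p = 0.0011, 21.3% of genes called). TSA2 was between 0.38 and 2.23 in wild type, highest at 10 to 20 min. Without either wild-type course neither passed (limma adjusted p = 0.014 to 0.063). TRR1 was above 0 on 3 of 26 heat arrays of all strains and TRX1 on 5 of 27, whereas TSA2 was above 0 on 24 of 24.

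In NaCl, wild-type PRX1 measured 2.32, 3.36, 3.47 and 3.07 at 15, 30, 60 and 90 min of course 1 and 3.22, 2.74 and 2.36 at 30, 45 and 60 min of course 2 (limma F = 72.5, adjusted p = 0.00023), and TSA2 0.79 to 1.80 (F = 31.7, adjusted p = 0.0012, 0.015 and 0.020 without course 1 or 2). The 3 members called of 9 (27.4% of genes) included SRX1, but its call rested on 1 array, at 15 min, where it measured -5.01 while every other wild-type NaCl value lay between -0.03 and 0.76: without that array, left out after seeing the data, the adjusted p was 0.84 (limma F = 0.41). TRR1 recovered from -1.22 and -1.36 at 30 min to -0.45 and -0.32 at 60 min.

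In rpd3Δ under NaCl most members were lower in most matched pairs: TSA1, AHP1, DOT5, TRX1 and TRX2 in 7 of 7, TSA2 in 5 of 5, PRX1 in 6 of 7 and TRX3 in 3 of 3. The pairs are times of 2 courses, and the share of all genes with such counts was not computed. Some differences were small, the smallest being -0.0017 for TRX2, -0.035 for TSA1 and -0.062 for TRX1. The median difference ran from -0.13 for TSA1 to -0.91 for DOT5, and TRR1 and SRX1 were lower in 3 of 7 and 3 of 6. DOT5 measured between -0.65 and -0.07 on all 7 rpd3Δ arrays and between -0.25 and 0.64 in wild type. No member passed for the difference over the course (limma, 0 of 9, 3.44% of genes, TSA2, DOT5 and SRX1 at an unadjusted p under 0.05), and the members of a pair share the array.

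On return from 37°C to 25°C PRX1 and TRR1 had the opposite sign to that on most heat arrays. PRX1 measured -1.52 to -0.28 on the 7 wild-type arrays, and TRR1 was above 0 on 13 of the 14 relief arrays, reaching 2.63 at 40 min in wild type. PRX1 was higher in rpd3Δ in 7 of 7 matched pairs (median difference 0.79). None of 9 members was called over the wild-type course (limma, PRX1 adjusted p = 0.049 against an FDR of 0.01, PRX1 and TRR1 at an unadjusted p under 0.05) or for the strain difference (PRX1 at an unadjusted p under 0.05, adjusted p = 0.85); 0% of genes were called in either.

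The inhibitor and plasmid arrays have no replicates. In heated wild-type cells PRX1 measured 1.80, 3.04 and 2.57 with DMSO and 1.76, 2.71 and 2.32 with trichostatin A at 5, 15 and 30 min, and TSA2 0.45, 1.75 and 1.43 against 0.70, 1.15 and 1.64. With the plasmids, PRX1 at 20 min of heat in rpd3Δ cells was 1.06 with the empty vector pRS415, 2.78 with RPD3 and 1.55 with the H150:151A form. At 30 min of H2O2 PRX1 was 4.56 with RPD3 and 3.12 with H150:151A, and SRX1 was 5.61 and 5.30. PRX1 was thus higher with the intact gene in both stresses, on 1 array each.

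Across all arrays the members did not move as a single group. The closest pairs were TSA2 with SRX1 (r = 0.89 over 88 arrays), TSA2 with TRX2 (r = 0.89 over 89) and TRR1 with SRX1 (r = 0.89 over 104). PRX1 was nearer to TSA2 (r = 0.75 over 90 arrays) than to TRR1 (r = 0.48 over 106), and TRX3 gave r from -0.26 to 0.09 with the other 9. These correlations are descriptions: arrays share strains, stresses and cultures, and the 51 H2O2 arrays set most of the range.

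**Figure D4:**
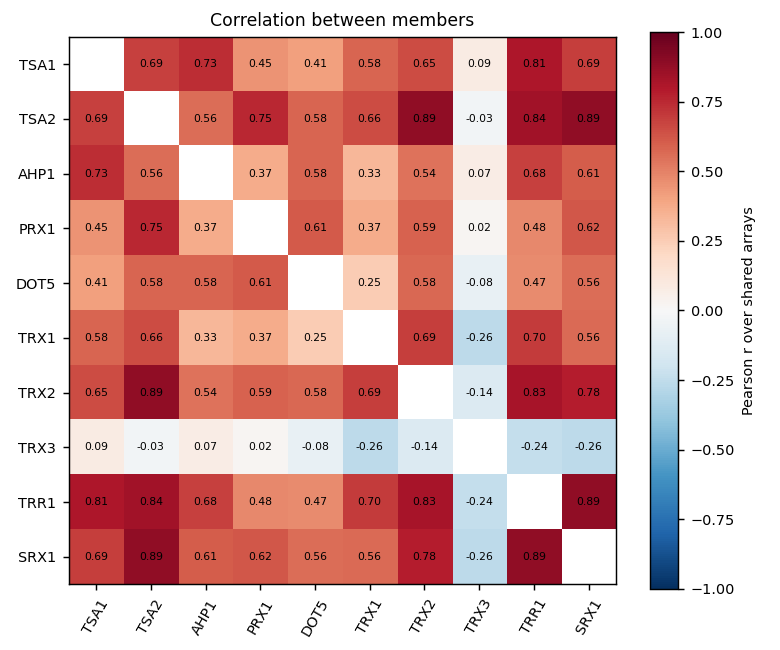
Pearson correlation of log2 ratios between each pair of the 10 genes over the arrays that measured both, coloured from negative to positive. TSA2, TRX2, TRR1 and SRX1 correlated with each other at 0.78 to 0.89, and TSA1 with TRR1 at 0.81, while TRX3 lies between -0.26 and 0.09 with every other member.

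By the rule of the 3 highest r over at least 87 arrays, the genes most like SRX1 were GTT2 (0.92), YGL114W (0.90) and OSI1 (0.90), those most like TRR1 were GPX2 (0.96), GSH1 (0.92) and AAD6 (0.92), and those most like TSA2 were AAD14 (0.94), ECM4 (0.93) and GRX2 (0.93). For TRX2 they were SNG1 (0.89), YNL134C (0.87) and TOS2 (0.86). PRX1 had another set, APE1 (0.89), SAL1 (0.87) and YMR090W (0.87). The other members had less similar genes: for TSA1 AAD14 (0.74), GPX2 (0.73) and PRE8 (0.72), for AHP1 GAL83 (0.75), ADE16 (0.73) and CDC48 (0.72), for DOT5 CLC1 (0.78), SDH5 (0.77) and RPN12 (0.77) and for TRX1 TOS2 (0.76), RIB3 (0.76) and GPX2 (0.75). TRX3 was measured on 83 arrays, too few for the rule.

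The other genes of the pathway gave the setting. Of 10 partners and regulators of the thioredoxins, all 10 were called in wild type at 30 min of H2O2, 8 higher and 2 lower (median 0.88), where 34.3% of all genes were higher and 34.1% lower, with GPX2 at 3.73 and GPX1 at 2.20, both thioredoxin-dependent glutathione peroxidase homologs, YAP1 itself at 1.82 and MET16, a thioredoxin-dependent sulfate assimilation enzyme, at 1.38. All 9 other known Yap1 targets rose (median 2.28), led by the glutathione transferase GTT2 at 5.97 and the dehydrogenase OYE3 at 5.16, with the drug exporter FLR1 at 3.78 and cytochrome c peroxidase, CCP1, at 2.52. All 8 Msn2/Msn4 targets rose (median 4.69), among them DDR2 at 6.79, HSP12 at 6.16, ALD3 at 5.06 and HSP26 at 4.85. Of the 5 Hsf1 targets 2 were called higher, the chaperones SSA4 at 4.37 and HSP104 at 3.29.

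Set against heat, where 14% of all genes were higher in H2O2 and 15.1% lower, all 9 Yap1 targets were higher in wild type, as were 4 of 10 partners, and of 6 tested Msn2/Msn4 targets 3 were higher and 1 lower. Against NaCl, where 8.28% of genes were higher and 7.68% lower, 9 of 9 Yap1 targets and 2 of 10 partners were higher and 0 of 6 Msn2/Msn4 targets differed. By strain, in msn2Δ msn4Δ 6 of 8 Msn2/Msn4 targets were lower than in wild type, where 3.36% of all genes were lower, and 0 of 9 Yap1 targets differed, beside the 0 of 7 members. In rpd3Δ, where 14.2% of genes were higher and 10.1% lower, 3 of 8 Msn2/Msn4 targets were lower, 2 of 9 Yap1 targets were higher, and the 10 partners split into 2 higher and 2 lower, GPX2 being higher by 0.96 (limma adjusted p = 0.0024). In the triple mutant, where 16.6% of genes were higher and 14.8% lower, 8 of 8 Msn2/Msn4 targets were lower, 1 of 9 Yap1 targets was higher and of the 10 partners 2 were higher and 4 lower. Of the Hsf1 targets, 1 of 4 tested was lower in H2O2 than in heat and 0 of 4 differed from NaCl. By strain, 0 of 5 differed from wild type in msn2Δ msn4Δ, 3 of 5 were lower in rpd3Δ and 4 of 5 in the triple mutant.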

How the data were processed

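RNA from stressed and unstressed cells was compared on 109 two-colour arrays. Per the labels each value is a log2 ratio that the authors deposited in a single normalized table, with the mean of each array near 0; background correction and normalization are not given in the sources used here. No direction is given for the ratio. Arrays of opposite dye orientation in 1 group correlated positively (28 pairs, r from 0.375 to 0.96), so no array was turned. This shows a shared direction but not which one it is. It was taken as stressed over unstressed because known stress genes were high.

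Ratios were fitted with limma (3.58.1, R 4.3.3) over all genes with values on 80% or more of its arrays, with Benjamini-Hochberg adjustment over all genes tested and an FDR of 0.01 for a strain against 0 or a wild-type course and 0.05 for differences. One fit covered the BY strains at 30 min of H2O2, others NSY429 and H4KQ, the 3 stresses at 30 min, the unstressed arrays and each time course with terms for strain and time. The fit of the H2O2 course also held the separate 30 min arrays of its strains. Summaries and figures were made with Python 3.11.15, numpy 2.4.6, pandas 2.3.3 and matplotlib 3.10.9. On simulated data with 200 changed genes among 5212, 97.5% of those changed by 2 log2 units were recovered in the comparison of rpd3Δ with wild type. Smaller changes were not simulated, so this does not tell how often the smaller strain differences above would be called.

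All 10 members were named, with the 3 genes of highest r for each and at most 4 called genes per list. The members and lists were chosen with earlier results of these data known. Alternatives were centring, rescaling, filters, blocks, fold thresholds and leaving out arrays. Promoter, probe and protein sequences were not used here.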

Additional observations from a re-analysis of the deposited data

Results flagged for a closer look

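Among 16 checks of groups of 4 to 10 arrays for a single distant value, 1 was met, and chance alone meets about 1 in 20: TRR1 in ume6Δ at 30 min of H2O2 measured 1.94 on replicate 4 against 3.10 to 3.31 on the other 3 arrays, a gap of 0.845 of the whole range (n = 4). The same array gave the lowest ume6Δ values of PRX1 and SRX1.

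At 60 min of NaCl both wild-type arrays lay above 0 and both rpd3Δ arrays below 0 for 4 members (4 arrays, 2 of each strain), out of the 8 measured on all 4, and the reverse split was seen for 0. Of the 4262 genes measured on all 4 arrays, 4.18% showed this split and 3.52% the reverse. The rpd3Δ-minus-wild-type difference was -0.999 for AHP1, -0.95 for DOT5, -0.43 for TRX1 and -0.66 for TRX2. Some values of course 2 lay close to 0: AHP1 at 0.05 in wild type, and TRX1 at -0.02 and TRX2 at -0.003 in rpd3Δ. The AHP1 difference was -1.81 in course 1 and -0.19 in course 2. The 2 rpd3Δ arrays correlated with each other at r = 0.488. These opposite directions were not tested as such, and the differences over the whole NaCl course did not pass for any of the 4 genes (limma adjusted p = 0.79, 0.21, 0.76 and 0.45).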

How the results depend on the processing

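Of 79 called results of single members, 51 passed under every alternative run and 28 did not under at least 1. Results that passed throughout include PRX1, TRR1 and SRX1 against 0 in every BY strain, and TRR1 and SRX1 in H2O2 against heat and NaCl in both strains. The rpd3Δ-minus-wild-type difference of SRX1 at 30 min of H2O2 turned to 0.18 when arrays were median-centred and divided by their own spread; the cause was not tested.

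Counts of members called moved by more than 1.5 times as follows, main counts in parentheses. With centring and rescaling, rpd3Δ minus wild type gave 1 (2), pho23Δ 0 (1), ume6Δ 0 (2), the triple mutant 4 (2) against wild type and 1 (0) against rpd3Δ, wild-type H2O2 minus heat 2 (5), rpd3Δ minus wild type in heat 1 (0), its interaction 2 (0), wild-type NaCl against 0 gave 1 (2) and rpd3Δ minus wild type over the H2O2 course 2 (1). With centring alone, pho23Δ gave 2 (1) and the rpd3Δ H2O2 course 2 (1). With no filter, which lets in members lacking over 20% of their values (TSA1, TSA2 and AHP1, and TRX3 in the stress contrasts and the H2O2 course), the counts were 8 (5) for wild type and for rco1Δ against 0, 5 (3) for H2O2 minus NaCl in wild type and in rpd3Δ, 1 (0) for rpd3Δ minus wild type in heat and 9 (5) for the wild-type H2O2 course. With genes measured on every array, fewer members were tested: 3 (5) for wild type, rco1Δ, ume6Δ, msn2Δ msn4Δ and the triple mutant against 0 and for wild-type H2O2 minus heat, 1 (2) for rpd3Δ minus wild type, 0 (1) for pho23Δ, 1 (2) for the triple mutant, 1 (2), 1 (3) and 3 (5) for the wild-type heat, NaCl and H2O2 courses and 0 (1) for the strain difference over the H2O2 course. With wild-type replicates 1 to 3 only, rpd3Δ, pho23Δ and ume6Δ minus wild type each gave 0 (2, 1 and 2) and H2O2 minus heat 3 (5). A dye covariate on the unstressed arrays gave 6 (0).

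The main fits did not pair arrays by replicate number. Over 64 same-numbered pairs at 30 min of H2O2 the correlation of deviations ran from -0.477 to 0.451 and 18 were over 0.1. Wild-type and rpd3Δ arrays of the same course at 30 min correlated at 0.144 and 0.175 in heat and at 0.217 and 0.207 in NaCl. Such correlations of few arrays cannot settle whether the strains of a course were paired. With the replicate block, rpd3Δ minus wild type gave 0 (2), pho23Δ 2 (1), ume6Δ 1 (2), NaCl against 0 in wild type and in rpd3Δ 1 each (2), the wild-type heat course 1 (2) and wild-type relief 1 (0).

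Leaving out 1 replicate gave 0 to 3 for rpd3Δ, 0 to 2 for pho23Δ, 1 to 2 for ume6Δ, 0 to 1 for msn2Δ msn4Δ and 1 to 3 for the triple mutant against wild type, 0 to 1 for the triple mutant against msn2Δ msn4Δ, 2 to 6 for H2O2 minus heat and 2 to 5 for H2O2 minus NaCl in wild type, 0 to 3 for the strain difference in heat and 0 to 2 for its interaction. Against 0 the ranges were 0 to 1 and 0 to 2 for heat and 1 to 2 and 0 to 2 for NaCl in wild type and rpd3Δ, 0 to 4 for the unstressed arrays, 0 to 2 and 1 to 3 for the wild-type heat and NaCl courses, and 0 to 1 and 1 to 2 for the strain difference over the heat and H2O2 courses. Where a group kept 1 array, it was assumed to vary like the others. The H2O2 course was not run with culture as a random block, nor without its wild-type replicate 1.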
